A study of Homo sapiens with 4 samples.

Results

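The genes described here are 41 genes of glycolysis, oxygen sensing and the hypoxia response, taken as a list of symbols that spans glucose transport, the enzymes from hexokinase to lactate dehydrogenase, their regulators, the pentose phosphate branch and targets of the hypoxia-inducible factors. The list was drawn up by gene function, with earlier results of these data known. All 41 had a row among the 37247 gene rows of the expression table, and 37 were expressed well enough to be tested. They were measured by RNA sequencing in AMO1, an established human plasmacytoma line with a WT genotype that is used as a model of multiple myeloma. One group of 2 libraries came from cells given periplocin for 6 h, at 0.2 mM as the labels give it, and the other group of 2 libraries came from cells given the vehicle DMSO (0.10%) for 6 h. Periplocin belongs to the cardiac glycosides, plant steroids that inhibit the membrane pump exchanging sodium for potassium, and the series title places the work in a study of drugs against that pump and their effect on c-Myc. The unit of the dose was not checked here. All cells were of 1 line and 1 time point, and the labels do not say whether the libraries of a group are separate cultures. The p-values therefore cover the spread between these libraries alone, and that spread may be technical.

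Glycolysis splits glucose into pyruvate, and cells that keep glycolysis fast convert much of the pyruvate to lactate and export it. Oxygen sets part of this programme. When oxygen is present, EGLN prolyl hydroxylases mark HIF1A for destruction through VHL, and when oxygen is low HIF1A pairs with ARNT, binds short DNA elements and raises genes for glucose uptake, glycolysis and blood vessel growth. Glucose is also read through MondoA (MLXIP) and ChREBP (MLXIPL), which induce the arrestins TXNIP and ARRDC4, and TXNIP in turn limits glucose uptake.

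The deposited values were TPM, a level per transcript length scaled to 1 sum in each library, so depth is unknown and counting error could not be computed. The periplocin libraries held 12357 and 12463 genes at 1 TPM or more and the DMSO libraries 12892 and 12915. All 6 plasma cell markers examined were above 1 TPM in every library, with sums of 9863 and 10307 TPM with periplocin and 9634 and 10005 TPM with DMSO. The marker sums for B cells, T cells, myeloid cells, fibroblasts and erythroid cells reached at most 15.1 TPM, and CD3D, CD2, HBA1 and ALAS2 were listed at 0. In bulk RNA, fewer cells of a kind and less RNA per cell cannot be told apart. Fold changes were computed from log2(TPM + 1), where the change of a low gene comes out too small, and calls are an adjusted p under 0.05 from limma-trend with Benjamini-Hochberg adjustment over 12947 tested genes.

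Of the 37 tested members, 6 were higher with periplocin (SLC2A3, TXNIP, VEGFA, ENO2, BNIP3L and SLC16A1) and 2 were lower (ANKRD37 and LDHA), which is 16.2% and 5.41% of them. Over all tested genes 29.3% were called, 10.4% higher and 18.9% lower. The median log2 fold change of the members was -0.05, against -0.14 for all tested genes. That shift of all genes depends on scaling: after division by size factors the median of all genes was -0.01 and that of the members 0.09, and 10 members were then higher and 1 lower, against 15.5% higher and 13.5% lower over all genes. HIF1A, PGK1, PKM and LDHB were the 4 members called higher with size factors in addition, and LDHA was the call that was lost. Each of the 37 had at least 1 TPM in all 4 libraries, so none entered the test through 1 group alone. On the deposited scale the groups did not overlap for 10 members that were higher in both periplocin libraries and for 13 that were lower in both, and they overlapped for the other 14. Over all tested genes, 25.4% lay higher in both periplocin libraries without overlap and 43.4% lower in both.

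**Figure D1:**
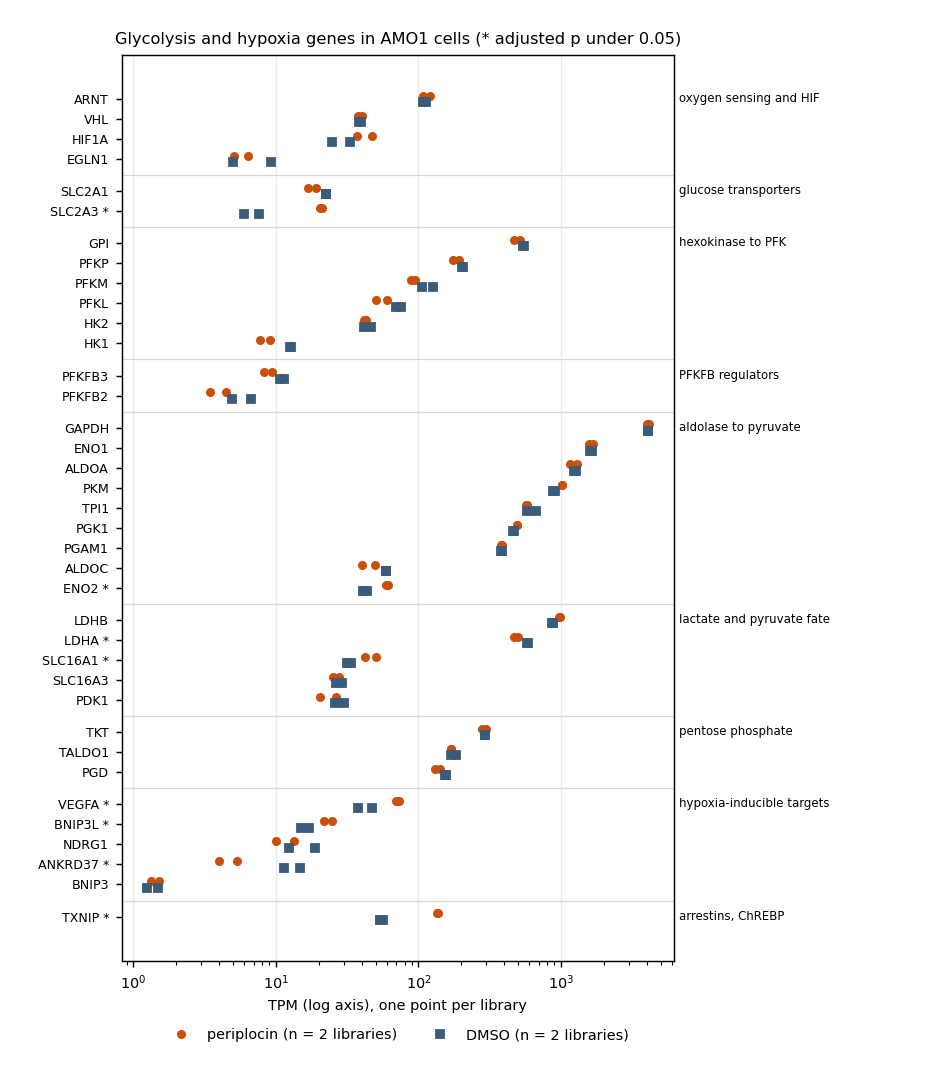
TPM of the 37 tested members on a log axis, with 1 point per library, circles for periplocin and squares for DMSO (n = 2 each), ordered by role and by level. GAPDH lies between 3988 and 4135 TPM in all 4 libraries, whereas the circles of SLC2A3, VEGFA and TXNIP lie to the right of their squares and those of ANKRD37 to the left.

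Glucose enters the cell through SLC2A1 (GLUT1) and SLC2A3 (GLUT3), facilitative transporters of which GLUT3 has the higher affinity for glucose. SLC2A3 (chromosome 12, 7919230 to 7936275, minus strand, GRCh38) had 20.9 and 20.4 TPM in the periplocin libraries, against 6.00 and 7.60 TPM in the DMSO libraries. Both periplocin libraries were high and close to each other, and the groups were well apart. Mean TPM was 20.6 ± 0.343 with periplocin and 6.80 ± 1.13 with DMSO (SD, n = 2 each), a 3.04-fold difference, and the log2 fold change was 1.48 (SE 0.18, adjusted p = 0.00507), the highest among the members. SLC2A1 had 19.0 and 16.9 TPM with periplocin and 22.3 and 22.6 TPM with DMSO, lower in both treated libraries, but its log2 fold change of -0.31 (SE 0.14) did not pass the test (adjusted p = 0.137). SLC2A3 thus made up 52.4% and 54.7% of the summed TPM of this pair in the periplocin libraries and 21.2% and 25.2% in the DMSO libraries. SLC2A3 has 4 near-copy rows, namely SLC2A14 and 3 pseudogenes. Together they held 0.235 and 1.05 TPM with periplocin and 1.95 and 1.09 TPM with DMSO. Their part of the TPM of SLC2A3 and its copies was 1.11% and 4.90% with periplocin and 24.6% and 12.5% with DMSO. How the reads were divided among these rows was not tested.

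Hexokinase, glucose-6-phosphate isomerase and phosphofructokinase carry glucose to the doubly phosphorylated fructose that commits it to glycolysis, and none of the 6 members of this stretch was called. GPI, the isomerase and the most abundant of them, had 513 and 471 TPM with periplocin and 553 and 544 TPM with DMSO (log2 fold change -0.16, SE 0.07, adjusted p = 0.147). The platelet-type phosphofructokinase PFKP had 194 and 174 TPM with periplocin and 203 and 206 TPM with DMSO (-0.16, SE 0.08, adjusted p = 0.208). Both were lower in each treated library by a margin close to the shift of all genes. Of the hexokinases that phosphorylate glucose on entry, HK2 had 41.8 and 42.9 TPM with periplocin and 41.8 and 46.3 TPM with DMSO. HK1 had 9.02 and 7.69 TPM with periplocin and 12.6 and 12.7 TPM with DMSO (log2 fold change -0.55, SE 0.17, 95% interval -0.97 to -0.13, adjusted p = 0.0590). HK1 was the lowest in fold change of the stretch and still missed the threshold, and its share of hexokinase TPM was 17.8% and 15.2% with periplocin and 23.2% and 21.5% with DMSO. The liver and muscle types of phosphofructokinase, PFKL and PFKM, also lay lower in both treated libraries without passing (log2 fold changes -0.38 and -0.34, adjusted p = 0.0640 and 0.0681). The PFKM locus overlaps SENP1 on the opposite strand, and without strand the reads of such a pair cannot be told apart.

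The PFKFB enzymes make and remove the sugar phosphate that switches phosphofructokinase on. PFKFB3, a form with strong kinase activity, had 9.43 and 8.24 TPM with periplocin and 11.4 and 10.6 TPM with DMSO (log2 fold change -0.29, SE 0.17, adjusted p = 0.251). PFKFB2 had 4.46 and 3.44 TPM with periplocin and 6.73 and 4.91 TPM with DMSO (-0.46, SE 0.25, adjusted p = 0.213). The treated libraries were lower for both genes, and neither passed. PFKFB2 overlaps YOD1 on the opposite strand, and YOD1 itself had 12.8 and 16.3 TPM with periplocin and 4.53 and 5.18 TPM with DMSO. PFKFB4 was too low to test, at 2.07 and 0.205 TPM with periplocin and 0.382 and 0.873 TPM with DMSO.

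From aldolase to pyruvate the members held the highest levels of the list, and 1 of the 9 was called. GAPDH, the dehydrogenase that yields the first NADH of the pathway, had 4135 and 3988 TPM with periplocin and 4093 and 4064 TPM with DMSO (log2 fold change -0.01, SE 0.06, 95% interval -0.15 to 0.13, adjusted p = 0.946). ENO1, the main enolase, had 1684 and 1562 TPM with periplocin and 1660 and 1599 TPM with DMSO (-0.01, SE 0.07, 95% interval -0.17 to 0.16, adjusted p = 0.951). For both enzymes the libraries of the groups overlapped, and with size factors both had a log2 fold change of 0.14 that did not pass (adjusted p = 0.143 for GAPDH and 0.197 for ENO1). ALDOA (1300 and 1164 TPM with periplocin, 1274 and 1234 TPM with DMSO) and PGAM1 (388 and 377 TPM with periplocin, 378 and 384 TPM with DMSO) overlapped in the same way. TPI1 had 569 and 575 TPM with periplocin and 666 and 578 TPM with DMSO, with an adjusted p of 0.340.

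ENO2, the enolase typical of neurons, was the called member of this stretch (chromosome 12, 6913745 to 6923698, plus strand, GRCh38). It had 61.1 and 59.6 TPM in the periplocin libraries, against 43.5 and 40.7 TPM in the DMSO libraries. The groups were apart, with means of 60.4 ± 1.03 TPM with periplocin and 42.1 ± 1.99 TPM with DMSO (SD, n = 2 each), a log2 fold change of 0.51 (SE 0.10) and an adjusted p of 0.0163. ENO2 nevertheless stayed a small part of enolase TPM, at 3.47% and 3.65% with periplocin and 2.52% and 2.44% with DMSO. PKM, the pyruvate kinase that ends the pathway, had 1020 and 1013 TPM with periplocin and 880 and 904 TPM with DMSO (log2 fold change 0.19, SE 0.06, adjusted p = 0.0608), and with size factors the same comparison passed (0.33, adjusted p = 0.0131). PGK1, the first enzyme that yields ATP, had 494 and 490 TPM with periplocin and 463 and 467 TPM with DMSO and likewise passed with size factors alone (0.23, adjusted p = 0.0444). ALDOC, a minor aldolase, had 49.9 and 40.1 TPM with periplocin and 58.7 and 59.1 TPM with DMSO (adjusted p = 0.0708). Summed over the 17 enzymes from hexokinase to lactate dehydrogenase, glycolytic transcripts took 1.21% and 1.16% of all TPM with periplocin and 1.20% and 1.18% with DMSO.

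**Figure D2:**
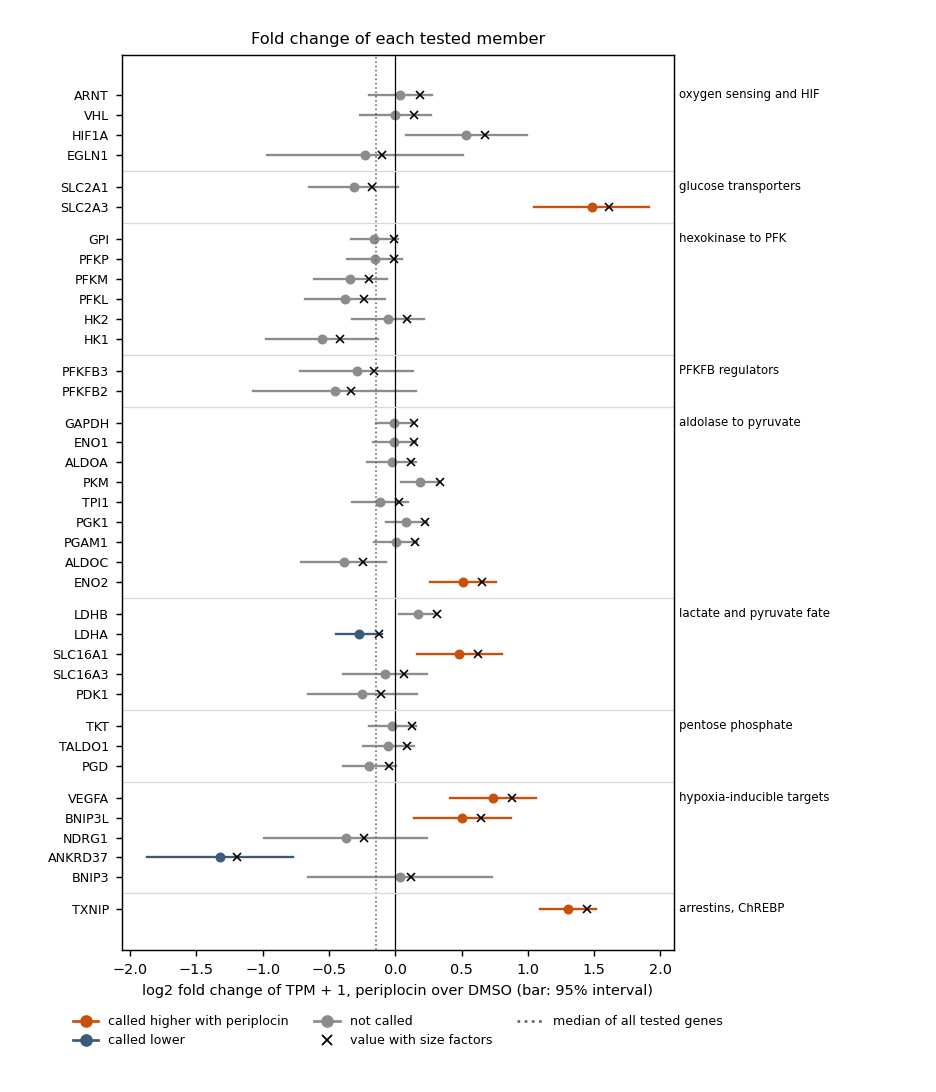
Log2 fold change of TPM + 1, periplocin over DMSO, for the 37 tested members (points, with bars for the 95% interval from limma-trend), with crosses for the value after size factors and a dotted line at the median of all tested genes. The intervals of the 6 members called higher lie above 0 and those of ANKRD37 and LDHA below it, while the cross of LDHA lies near -0.13.

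Pyruvate is turned into lactate by lactate dehydrogenase, whose A subunit favours lactate formation and whose B subunit favours the return to pyruvate, and the balance of the subunits differed between the groups. LDHA (chromosome 11, 18394388 to 18408425, plus strand, GRCh38) had 465 and 501 TPM with periplocin, against 575 and 591 TPM with DMSO. Both treated libraries were lower, with means of 483 ± 25.5 TPM with periplocin and 583 ± 11.2 TPM with DMSO (SD, n = 2 each), a log2 fold change of -0.27 (SE 0.07) and an adjusted p of 0.0349. This call was lost with size factors, where the log2 fold change was -0.13 and the adjusted p 0.218. LDHB had 985 and 968 TPM with periplocin and 872 and 860 TPM with DMSO, higher in both treated libraries, with a log2 fold change of 0.17 (SE 0.06) that did not pass as deposited (adjusted p = 0.0755) and did with size factors (0.32, adjusted p = 0.0165). The ratio of the subunits within a library does not depend on scaling. LDHA made up 32.1% and 34.1% of LDHA plus LDHB in the periplocin libraries and 39.7% and 40.7% in the DMSO libraries, while their sum was 1451 and 1469 TPM with periplocin and 1447 and 1451 TPM with DMSO.

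Lactate and pyruvate cross the membrane through the monocarboxylate transporters. SLC16A1 (MCT1; chromosome 1, 112911847 to 112957013, minus strand, GRCh38) had 50.5 and 42.1 TPM with periplocin and 33.8 and 31.5 TPM with DMSO. The groups were apart, the means were 46.3 ± 5.91 TPM with periplocin and 32.7 ± 1.62 TPM with DMSO (SD, n = 2 each), and the log2 fold change was 0.48 (SE 0.13, adjusted p = 0.0390). SLC16A3 (MCT4), the exporter that hypoxia induces, had 27.5 and 25.0 TPM with periplocin and 26.3 and 29.1 TPM with DMSO, and these overlapped (adjusted p = 0.685). Its locus overlaps CSNK1D on the opposite strand, a gene at 105 and 120 TPM with periplocin and 60.5 and 79.8 TPM with DMSO. PDK1, the kinase that switches off pyruvate dehydrogenase, had 20.4 and 26.5 TPM with periplocin and 25.9 and 29.8 TPM with DMSO, which overlapped as well (adjusted p = 0.302). Of the summed TPM of SLC16A1, SLC16A3 and SLC16A7, SLC16A3 took 29.5% in each periplocin library and 37.4% and 41.8% in the DMSO libraries.

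**Figure D3:**
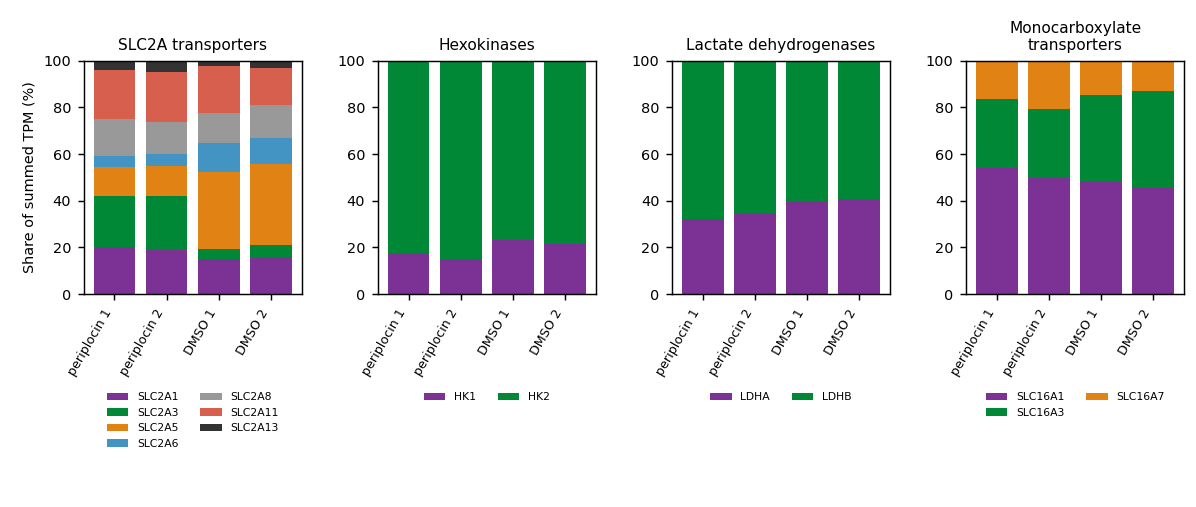
Stacked bars of the share of summed TPM (%) that each gene took among the 7 tested SLC2A transporters, HK1 and HK2, LDHA and LDHB, and SLC16A1, SLC16A3 and SLC16A7, with 1 bar per library. SLC2A3 grew to 22.0% and 22.9% of SLC2A transporter TPM with periplocin, against 4.10% and 5.30% with DMSO, and the LDHA part of LDHA plus LDHB was smaller in both periplocin libraries.

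The pentose phosphate branch draws sugar phosphates off glycolysis to make NADPH and ribose, and none of its 3 members was called. TKT, the transketolase, had 299.6 and 279 TPM with periplocin and 295 and 292 TPM with DMSO (log2 fold change -0.02, adjusted p = 0.843). TALDO1, the transaldolase, had 169 and 170 TPM with periplocin and 170 and 182 TPM with DMSO (-0.05, adjusted p = 0.633). Neither differed by more than the spread between libraries. PGD, the second dehydrogenase of the branch, had 141 and 130 TPM with periplocin and 155 and 156 TPM with DMSO (-0.19, adjusted p = 0.124).

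Among the oxygen sensors, no member was called on the deposited scale. ARNT, the partner subunit of HIF1A, had 121 and 107 TPM with periplocin and 108 and 113 TPM with DMSO (log2 fold change 0.04, SE 0.10, 95% interval -0.20 to 0.28, adjusted p = 0.789). VHL, the ubiquitin ligase subunit that recognises hydroxylated HIF, had 40.1 and 37.4 TPM with periplocin and 38.1 and 39.2 TPM with DMSO (0.00, SE 0.11, 95% interval -0.26 to 0.27, adjusted p = 0.992). The libraries of the groups overlapped for both. HIF1A, the oxygen-regulated subunit, had 36.9 and 47.5 TPM with periplocin and 24.8 and 32.8 TPM with DMSO, so both treated libraries were higher although those of each group spread widely. Its log2 fold change was 0.54 (SE 0.19, 95% interval 0.08 to 0.99, adjusted p = 0.0775), and with size factors it was 0.68 and passed (adjusted p = 0.0383). EGLN1, a prolyl hydroxylase that marks HIF1A, had 6.34 and 5.09 TPM with periplocin and 9.21 and 5.00 TPM with DMSO (adjusted p = 0.5999). Most EGLN TPM came from EGLN2 of the wider list, at 92.0% and 91.7% with periplocin and 86.9% and 91.0% with DMSO. EGLN3 was listed at 0 and 0.480 TPM with periplocin and at 0 in both DMSO libraries and was not tested. HIF1A is controlled mostly at the protein level, which was not measured.

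The hypoxia-inducible targets did not move as a block: of 5 members 2 were higher, 1 was lower and 2 were not called. Over all tested genes 10.4% were called higher and 18.9% lower, and 5 members are too few to set against those shares. VEGFA, the growth factor for blood vessels (chromosome 6, 43770184 to 43786487, plus strand, GRCh38), had 72.7 and 70.0 TPM with periplocin and 47.5 and 37.8 TPM with DMSO. The groups were apart, with means of 71.3 ± 1.90 TPM with periplocin and 42.7 ± 6.91 TPM with DMSO (SD, n = 2 each), a 1.67-fold difference, a log2 fold change of 0.74 (SE 0.13) and an adjusted p of 0.0130. BNIP3L, a mitochondrial receptor for autophagy, had 21.8 and 24.7 TPM with periplocin and 17.2 and 15.0 TPM with DMSO (log2 fold change 0.51, SE 0.15, adjusted p = 0.0499). This call sits at the threshold, and a pseudocount of 0.1 moved the adjusted p to 0.0512. ANKRD37, a small ankyrin repeat protein (chromosome 4, 185396021 to 185400628, plus strand, GRCh38), went the other way, with 5.29 and 3.98 TPM with periplocin and 11.5 and 14.8 TPM with DMSO. Its mean was 4.64 ± 0.929 TPM with periplocin and 13.1 ± 2.32 TPM with DMSO (SD, n = 2 each), 0.354 of the DMSO level, with a log2 fold change of -1.32 (SE 0.22, adjusted p = 0.0108). The last 1089 bases of ANKRD37 overlap UFSP2 on the opposite strand, and UFSP2 was lower too, at 11.3 and 12.8 TPM with periplocin and 21.8 and 22.5 TPM with DMSO, so how the reads were divided between them was not tested. NDRG1, a stress-induced gene, had 13.3 and 9.95 TPM with periplocin and 18.8 and 12.2 TPM with DMSO, which overlapped (adjusted p = 0.297). BNIP3, the relative of BNIP3L, had 1.32 and 1.51 TPM with periplocin and 1.24 and 1.48 TPM with DMSO (adjusted p = 0.937), and its value is uncertain because 42 rows of near copies together held more TPM than BNIP3 itself in every library.

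TXNIP, the arrestin that binds thioredoxin and restrains glucose uptake, had the lowest adjusted p of the members (chromosome 1, 145992435 to 145996600, minus strand, GRCh38). Its TPM was 136 and 138 in the periplocin libraries and 53.6 and 56.0 in the DMSO libraries. The libraries of each group were nearly alike and the groups far apart, with means of 137 ± 1.83 TPM with periplocin and 54.8 ± 1.71 TPM with DMSO (SD, n = 2 each), a 2.50-fold difference, a log2 fold change of 1.31 (SE 0.09) and an adjusted p of 0.00218. ARRDC4, the related arrestin that shares regulation by MondoA, was listed at 0 in all 4 libraries. MLXIPL (ChREBP) was listed at 0 and 0.117 TPM with periplocin and at 0 and 0 TPM with DMSO. Of these 3 genes, TXNIP was therefore the 1 that could be tested.

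The core letters of the hypoxia response element, ACGTG and GCGTG, were searched on both strands in the 250 bases before the RefSeq start of each gene (GRCh38.p14), and 34 of the 41 members matched an entry (not SLC2A3, SLC16A1, VEGFA, BNIP3L, VHL, PFKFB2 or NDRG1). Either core was present in 19 of the 34 (55.9%), against 43.2% of all 35116 promoters. ACGTG was present in 13 (38.2%), against 18.5% of all promoters, and GCGTG in 12 (35.3%), against 32.2%. The palindrome CACGTG, the E-box bound by MYC and by MondoA relatives, contains ACGTG on both strands and was present in 6 (17.6%), against 6.34% of all promoters. These are matches of letters and not shown to be bound. The set of all promoters was not limited to genes tested here and was not matched to the members in base composition. The stretches of 30 bases that follow come from called members on both sides, 2 that were higher (TXNIP and ENO2) and 2 that were lower (ANKRD37 and LDHA), and show what such cores look like in place; capitals mark ACGTG or GCGTG on either strand, and each is written 5′ to 3′ on the gene's strand.
TXNIP, chr1:145996726-145996755, minus strand: agcacaccgtgtcCACGCgccacagcgatc
TXNIP, chr1:145996617-145996646, minus strand: cgggccagcgctcGCGTGgctcttctggcc
ENO2, chr12:6914449-6914478, plus strand: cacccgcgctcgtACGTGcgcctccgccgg
ANKRD37, chr4:185396676-185396705, plus strand: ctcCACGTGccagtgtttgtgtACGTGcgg
LDHA, chr11:18394366-18394395, plus strand: agactcccagcgCACGTGgagcagtctgcc
LDHA, chr11:18394470-18394499, plus strand: gactcaCACGTGggttcccgCACGTccgcc
The 6 members with CACGTG were ANKRD37 and LDHA, which were lower, GAPDH, ALDOC and BNIP3, which were not called, and ARRDC4, which was listed at 0. The RefSeq starts used here can differ from the gene starts given above. The stretches of ANKRD37 and ENO2 and the second of LDHA lie inside the spans given above for these genes.

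A wider list of 118 other genes of the same pathways gave the setting for these members. Of them 117 had a row and 82 were tested, with 7 higher (8.54%), 16 lower (19.5%) and a median log2 fold change of -0.11, shares near those of all tested genes. Of the 82, 77 had at least 1 TPM in all 4 libraries. Other glucose transporters and other glycolytic isozymes held no gene that was higher as deposited, with 2 of 5 and 5 of 10 lower. With size factors BPGM and G6PC3 of the isozyme list were no longer called lower (adjusted p = 0.0864 and 0.0723). SLC2A5, the fructose transporter, had 11.8 and 11.4 TPM with periplocin, against 48.4 and 49.9 TPM with DMSO (log2 fold change -1.99, SE 0.12, adjusted p = 0.00210). SLC2A6, a transporter of lysosomal membranes, had 4.72 and 4.86 TPM with periplocin and 18.1 and 16.0 TPM with DMSO (-1.64, adjusted p = 0.00416). Both fell while SLC2A3 rose, and the summed TPM of the 7 tested SLC2A genes was 92.0 ± 4.25 with periplocin and 145 ± 2.11 with DMSO (SD, n = 2 each). GAPDHS, the sperm form of GAPDH, had 5.64 and 5.09 TPM with periplocin and 20.1 and 16.8 TPM with DMSO (-1.61, adjusted p = 0.00448).

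Among the other hypoxia-inducible targets 3 of 17 (17.6%) were higher and 3 (17.6%) lower as deposited, against 10.4% and 18.9% over all tested genes. With size factors the 3 higher genes stayed called, and PLOD1 and AK4 were no longer called lower (adjusted p = 0.0841 and 0.0665). KDM3A, a histone demethylase that HIF1A induces, had 50.4 and 55.9 TPM with periplocin and 25.9 and 23.5 TPM with DMSO (log2 fold change 1.08, SE 0.12, adjusted p = 0.00448). The related repressors BHLHE40 and BHLHE41 moved in opposite directions. BHLHE40 had 75.6 and 74.9 TPM with periplocin and 36.8 and 48.7 TPM with DMSO (0.82, adjusted p = 0.0129). BHLHE41 had 7.03 and 2.98 TPM with periplocin and 18.0 and 14.8 TPM with DMSO (-1.61, adjusted p = 0.0208). WSB1, a ubiquitin ligase subunit, had 54.2 and 46.1 TPM with periplocin and 28.0 and 34.0 TPM with DMSO (0.68, adjusted p = 0.0208). Of 9 tested HIF regulators, SIAH1, a ubiquitin ligase that acts on EGLN proteins, was the 1 called, with 14.5 and 17.3 TPM with periplocin and 10.1 and 9.24 TPM with DMSO (0.66, adjusted p = 0.0354). The groups did not overlap for any of these 5 genes, which were named because they were called. Among all tested genes the groups were apart in the same sense for 25.4% (higher) and 43.4% (lower).

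At the entry of pyruvate into mitochondria 2 of 13 genes (15.4%) were higher and 3 (23.1%) lower as deposited. Over all tested genes 10.4% were higher and 18.9% lower. With size factors PDK2, 1 of the 3 lower genes, was not called (adjusted p = 0.0899). PDP2, the phosphatase that switches pyruvate dehydrogenase on, had 29.3 and 33.3 TPM with periplocin and 13.3 and 18.5 TPM with DMSO (log2 fold change 0.95, adjusted p = 0.0159). PC, pyruvate carboxylase, had 1.23 and 0.557 TPM with periplocin and 4.83 and 3.31 TPM with DMSO (-1.43, adjusted p = 0.0236). PC was above 1 TPM in both DMSO libraries and in 1 periplocin library, so it passed the filter through the group where it was high, and it overlaps LRFN4 on the opposite strand, a gene above 200 TPM in all 4 libraries. SLC16A7 (MCT2), a further lactate transporter, had 15.4 and 17.7 TPM with periplocin and 10.2 and 8.92 TPM with DMSO (0.73, adjusted p = 0.0253), which puts it on the same side as SLC16A1. In the MondoA pathway 1 of 6 genes was called as deposited. That gene, the arrestin ARRDC3, had 10.3 and 12.9 TPM with periplocin and 22.0 and 28.1 TPM with DMSO (-1.05, adjusted p = 0.0129), the direction opposite to TXNIP. MLXIP (MondoA) had 32.6 and 29.4 TPM with periplocin and 19.0 and 25.0 TPM with DMSO. It did not pass as deposited (0.48, adjusted p = 0.0744) and did with size factors (0.62, adjusted p = 0.0355). MLX of the same list lay lower in both treated libraries and passed on neither scale (adjusted p = 0.0793 as deposited, 0.288 with size factors). As deposited, the pentose phosphate list had 1 of 8 lower and the glycogen and hexosamine list 1 of 10 lower, with none higher in either. With size factors GYS1, the lower gene of the glycogen and hexosamine list, was not called (adjusted p = 0.152). GFPT1 of that list was then called higher (0.79, adjusted p = 0.0431).

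**Figure D4:**
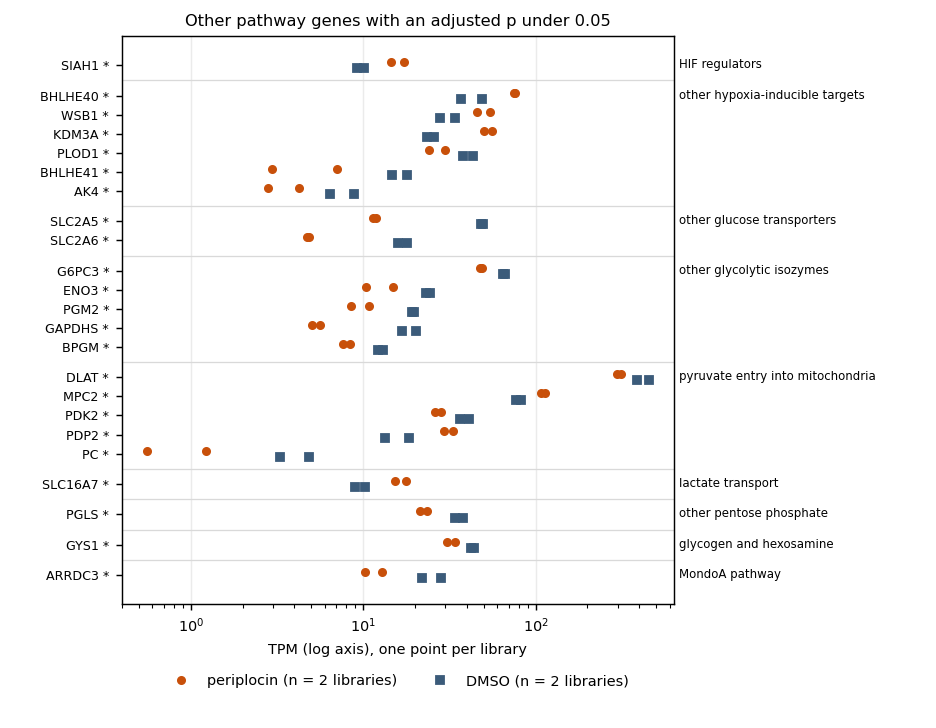
TPM of the 23 called genes of the wider pathway list on a log axis, with 1 point per library, circles for periplocin and squares for DMSO (n = 2 each), ordered by role. The circles of SLC2A5 lie near 12 TPM and its squares near 49, and those of KDM3A lie near 53 and 25. PC is the lowest of them with periplocin, at 1.23 and 0.557 TPM, against 4.83 and 3.31 TPM with DMSO.

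With 2 libraries per group, an exact two-sided permutation test of 1 gene cannot go below p = 0.33, so each call rests on the spread that limma shares across genes. With no filter on low values SLC2A3, ENO2 and TXNIP were the members still called, and with no trend in the variance SLC2A3, VEGFA, TXNIP and ANKRD37. Without the first periplocin library, SLC2A3, TXNIP and ANKRD37 remained called among the members, and without the second, SLC2A3 and TXNIP. Without either DMSO library no member and no gene at all was called by limma-trend, with 8 and 7 members at an unadjusted p under 0.05. Because the groups did not overlap for any called member, leaving out 1 library could not change the sign of its log2 fold change. Over these 4 fits the value ran from 1.33 to 1.63 for SLC2A3, 1.27 to 1.34 for TXNIP and 0.58 to 0.90 for VEGFA. It was 0.46 to 0.56 for ENO2, 0.36 to 0.61 for SLC16A1 and 0.42 to 0.60 for BNIP3L. For LDHA it was -0.32 to -0.22 and for ANKRD37 -1.49 to -1.16.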

How the data were processed

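The authors deposited 1 table of TPM values for 4 libraries of AMO1 cells, made from total RNA with paired-end Illumina sequencing, per the labels' protocols. The submitters' processing notes name GRCh38 and DESeq2 without a role. Aligner, quantifier, strand use and annotation: not given in the sources used here. Columns written PP were read as periplocin. Of the 37247 identifiers, 34620 were placed with GENCODE 29 (GRCh38) and 34436 had a symbol, and promoter letters came from RefSeq (GRCh38.p14).

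Genes with TPM of at least 1 in at least 2 libraries were kept, transformed to log2(TPM + 1) and compared by limma-trend (limma 3.58.1, R 4.3.3), two-sided, with 2 residual and 4.01 prior degrees of freedom and Benjamini-Hochberg adjustment. On simulated tables with known changes the fit recovered their size but made false calls more often than the threshold allows. Calls near the threshold are therefore less firm. The simulated tables held far fewer changed genes than were called here, so their rate of false calls may not carry over. Tables and plots were made with Python 3.11.15, pandas 2.3.3, numpy 2.4.6 and matplotlib 3.10.9. Alternatives were a pseudocount of 0.1, no filter, median-of-ratios size factors, median centring, no trend, a replicate block and leaving out each library. Isozyme shares and sums were not tested.

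The members, the wider list and the tests were chosen with earlier results of these data known. Values per library are given for members called and for the most abundant of each role, and often for others; of the wider list, for the 6 called genes with the largest change in each direction. Libraries with the same number did not deviate together over all tested genes (correlation 0.03). The titles do not state that the numbers pair libraries, and this correlation cannot exclude pairing. The replicate block was therefore kept as an alternative.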

Additional observations from a re-analysis of the deposited data

How the results depend on the processing

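All 8 called members and the 12 named genes of the wider list kept their direction in all 10 alternatives. Of these, only size factors and median centring could have reversed a direction. The filter, the trend and the replicate block leave the fold change as it is. The groups of these genes did not overlap, so neither another pseudocount nor leaving out 1 library could change a sign. The number of members called higher, 6, was 3 with no filter on low values, 10 with size factors, 10 with median centring and 3 with no trend, and 0 to 2 when 1 library was left out. The number called lower, 2, was 0 with no filter by limma-trend (16 members of either direction at an unadjusted p under 0.05), 1 with size factors, 1 with median centring and 1 with no trend, and 0 to 1 when 1 library was left out. Of the wider list, 7 were called higher, against 2 with no filter, 13 with median centring and 0 to 2 when 1 library was left out. The 16 called lower were 5 with no filter, 10 with size factors, 10 with median centring, 8 with no trend and 0 to 6 when 1 library was left out. With the replicate block 8 members were called higher and 5 lower, and 8 and 16 of the wider list. Counts over all tested genes changed with the setting too. Higher were 1352 as deposited, 613 with no filter, 2012 with size factors and 2117 with median centring. With no trend 876 were higher, and with the replicate block 1685. Lower were 2443, 1026, 1745, 1553, 1932 and 2876, in the same order. The test without a filter ran over 21232 genes and the others over 12947. The summed TPM of the 17 glycolytic enzymes had a log2 ratio of -0.01 as deposited, 0.14 with size factors and -0.04 to 0.02 when 1 library was left out. The LDHA share of LDHA plus LDHB TPM differed by -7.13 percentage points, and by -8.16 to -6.11 when 1 library was left out. A fit without 1 library takes the lone library of its group to vary like the other group. The causes of these changes were not tested. Depth is not recorded in TPM, so low genes such as ANKRD37 carry a counting error that cannot be given.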

Other observations

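The rows of BNIP3 near copies gave values that no comparison above uses. The 42 such rows summed to 3.59 and 3.10 TPM in the periplocin libraries and to 10.7 and 13.9 TPM in the DMSO libraries, lower in both treated libraries, and BNIP3P11 was the largest of them. They made up between 67.2% and 90.3% of the TPM of BNIP3 and its copies together. The 65 near-copy rows of GAPDH reached at most 0.0761% of the TPM of GAPDH and its copies.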
